A study of Homo sapiens with 4 samples.

Results

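The genes described here are the long intergenic noncoding RNA genes that carry a LINC symbol and were expressed in human fibroblasts with or without induced FOXA2. They were taken as the rows of the deposited table whose symbol is LINC followed only by digits, that lie off chromosome Y, and that reached 1 FPKM in either of the 2 columns used. FPKM is the number of fragments per length of transcript, scaled to the mapped fragments of the library. Of 643 LINC rows among 63651 rows of the table, 84 passed this limit (13.1%, against 22.5% of all rows), and 83 of them lie off chromosome Y. The limit reads the same values that are described below, so the presence of the 83 genes at 1 FPKM or more is no finding.

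RNA was sequenced from BJ-5ta, a foreskin fibroblast line immortalised with telomerase, in clonal derivatives that carry a doxycycline-inducible FOXA2 transgene and were grown with hygromycin B, puromycin and bFGF. The labels give 2 uninduced samples, which had no doxycycline, and 2 in which 0.5 µg/ml of it induced FOXA2, a forkhead factor that binds its sites in closed chromatin. They also describe an overnight mimosine block in G1 but do not tie it to particular samples, and they give no duration of induction. The name of the induced column carries 4D, which the labels do not explain. Each group has a single FPKM column in the table, with the bounds of an interval, and samples cannot be read separately. No difference below could be set against replicate spread or tested. Cells lacking the transgene but given the drug were not analysed here, so induction and drug exposure cannot be told apart. The transgene's gene, FOXA2, rose after induction: it was at 4.82 FPKM uninduced (interval 0.526 to 9.12) and at 104 FPKM induced (50.2 to 158). Of 10 fibroblast markers, all 10 reached 1 FPKM, with sums of 5739 FPKM uninduced and 5151 FPKM induced. None of the 5 epithelial and 4 endothelial markers reached that limit. Of 5 immune markers CD14 and PTPRC did (list sums 1.39 and 3.52 FPKM), and CD3E was listed at 0 in both columns. Of 5 melanocyte or neural markers TUBB3 and PMEL did (list sums 116 FPKM uninduced and 72.0 FPKM induced), with SOX10 at 0. Of 5 endoderm or liver markers APOA1 did (list sums 0.102 FPKM uninduced and 1.25 FPKM induced), with HNF4A, TTR and SOX17 at 0. The part of these markers in the values of the LINC genes was not tested.

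A long intergenic noncoding RNA is transcribed from its own unit between protein-coding genes and is usually spliced and polyadenylated. LINC followed by a number is a placeholder symbol, given while a gene's function is unknown, and is replaced once a role, a small protein or a host transcript has been described. Some of these RNAs act in trans by binding proteins, some act on neighbouring genes, and for most no function is known. The libraries kept no strand, so reads of a LINC gene and of a gene on the opposite strand cannot be told apart.

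The placeholder symbols of the table are partly outdated. By Ensembl identifier, 30 of the 83 genes have another symbol in the current gene name table, and 2 are not in it. LINC00657 is now NORAD, LINC00152 is CYTOR, LINC00704 is MANCR, LINC01021 is PURPL and LINC00883 is DUBR. The row named LINC00869 is now LINC00623, while GENCODE release 29 gives the symbol LINC00869 to another gene. The names of 4 end in -DT, for divergent transcripts that start beside a coding gene, and 4 carry antisense names, such as ERCC6L2-AS1 for LINC00476. In GENCODE release 29, 50 of the 83 are typed as lincRNA, 7 as processed transcript, 6 as antisense and 6 as protein coding. Others are typed as pseudogenes: 5 transcribed unprocessed, 2 transcribed processed, 1 transcribed unitary and 1 unprocessed. LINC00888 and LINC01085 are among these.

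The promoters of 4 genes with large differences, 2 in each direction, are shown because forkhead motifs were searched in them. They are RefSeq sequences of GRCh38.p14, 300 bases each, from 250 bases before to 50 bases after the most upstream annotated start, on the gene's strand. LINC01119 and LINC00517 were the 2 with the most negative differences. LINC00613 had the most positive difference and LINC00888 (SNHG33 in RefSeq) the third; LINC00965, which lay between them, is given by its values only. The letters searched, on both strands, were TGTTTAC and TATTTAC, cores of the forkhead motif, and the interferon-stimulated response element, a pair of GAAA blocks with 2 bases between them. None of these was in the 4 windows, so they hold no capitals.
LINC01119 chr2:46827614-46827913, plus strand: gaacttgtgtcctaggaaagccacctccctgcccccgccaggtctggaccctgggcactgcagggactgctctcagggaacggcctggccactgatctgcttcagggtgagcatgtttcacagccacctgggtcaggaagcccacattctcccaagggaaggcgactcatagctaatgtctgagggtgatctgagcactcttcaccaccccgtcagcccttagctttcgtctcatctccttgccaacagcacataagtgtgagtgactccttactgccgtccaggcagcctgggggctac
LINC00517 chr14:37902075-37902374, minus strand: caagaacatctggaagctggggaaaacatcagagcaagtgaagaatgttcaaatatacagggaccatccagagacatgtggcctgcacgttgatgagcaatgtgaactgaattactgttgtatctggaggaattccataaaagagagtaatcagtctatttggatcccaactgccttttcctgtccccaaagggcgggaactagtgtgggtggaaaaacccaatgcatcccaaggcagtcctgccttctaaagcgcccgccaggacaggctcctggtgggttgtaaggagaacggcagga
LINC00613 chr4:135913631-135913930, minus strand: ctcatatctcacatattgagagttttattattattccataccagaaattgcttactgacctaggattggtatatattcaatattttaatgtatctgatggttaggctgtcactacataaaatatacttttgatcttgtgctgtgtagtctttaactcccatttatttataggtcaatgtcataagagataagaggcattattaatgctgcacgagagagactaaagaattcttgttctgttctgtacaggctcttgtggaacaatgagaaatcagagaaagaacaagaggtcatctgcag
LINC00888 chr3:183447358-183447657, plus strand: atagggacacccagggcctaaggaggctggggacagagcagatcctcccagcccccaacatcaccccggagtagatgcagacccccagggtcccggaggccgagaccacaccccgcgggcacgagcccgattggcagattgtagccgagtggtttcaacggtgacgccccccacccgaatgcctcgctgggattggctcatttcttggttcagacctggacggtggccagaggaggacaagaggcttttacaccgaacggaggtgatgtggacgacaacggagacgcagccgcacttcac

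RefSeq promoters were matched by LINC symbol, current symbol or synonym for 65 of the 83 genes, giving 79 windows with alternative starts. The window given below for LINC00843 is that of TIMM23B-AGAP6, its current symbol, while GENCODE release 29 types LINC00843 as lincRNA. Those of LINC00704, LINC01021 and LINC00263 were matched as MANCR, PURPL and OLMALINC. A forkhead core, TGTTTAC or TATTTAC, was found in 7 of these windows (8.86%), against 2098 of 35116 windows of all genes (5.97%). The response element was in 3 of the 79 (3.80%), against 3.57% of all windows. The 7 windows belong to 7 genes and are given around the core, which is in capitals, on the strand of the gene, where GTAAACA and GTAAATA are the cores read from the opposite strand.
LINC00641 chr14:21207059-21207099, minus strand: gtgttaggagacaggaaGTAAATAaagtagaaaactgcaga
LINC00704 chr10:4678110-4678150, minus strand: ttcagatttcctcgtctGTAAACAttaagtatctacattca
LINC00843 chr10:49941877-49941917, plus strand: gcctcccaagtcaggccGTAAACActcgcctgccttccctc
LINC00511 chr17:72640504-72640544, minus strand: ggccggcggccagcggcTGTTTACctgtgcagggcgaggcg
LINC01021 chr5:27472105-27472145, plus strand: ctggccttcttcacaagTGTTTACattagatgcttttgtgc
LINC00263 chr10:100373406-100373446, plus strand: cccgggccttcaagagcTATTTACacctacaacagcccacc
LINC00613 chr4:135888290-135888330, minus strand: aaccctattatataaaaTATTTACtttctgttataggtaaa
The core lay 182 bases before the start in LINC00641, 63 in LINC00704, 159 in LINC00843 and 55 in LINC00511. It lay 170 bases before the start in LINC01021, 153 in LINC00263 and 220 before the second start of LINC00613. The 7 genes had values on both sides of 0. The log2 differences were -0.98 for LINC00641, -0.41 for LINC00704 and -0.35 for LINC00843. They were 0.54 for LINC00511, 0.69 for LINC01021, 0.74 for LINC00263 and 1.97 for LINC00613. A log2 difference is throughout that of log2(FPKM + 1), induced less uninduced, and it understates the fold of genes with low values.

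The LINC genes were low in both columns. Their median level was 2.75 FPKM uninduced (quartiles 1.37 and 6.35) and 2.93 FPKM induced (1.52 and 8.01), against 13.7 and 14.6 FPKM over the 14319 rows kept at the same limit. At 1 FPKM or more there were 69 of the 83 uninduced and 78 induced. These counts use the limit that chose the genes, and the shares of all kept rows were not taken, so they are no finding. A mean of both columns of 10 FPKM or more was reached by 12. LINC00152 and LINC00657 together held 29.8% of the FPKM summed over the 83 genes uninduced and 25.7% induced. Of the 640 LINC rows off chromosome Y, 407 were listed at 0 in both columns and a further 150 lay above 0 and under the limit. The genes just inside the limit were LINC00999 (0.378 FPKM uninduced and 1.02 FPKM induced), LINC01004 (1.03 and 0.605 FPKM) and LINC01011 (0.834 and 1.04 FPKM). Just outside were LINC01160 (0.357 and 0.872 FPKM), LINC00478 (0.143 and 0.855 FPKM) and LINC01125 (0.594 and 0.855 FPKM).

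No LINC gene was called higher or lower after induction. A row was called when the deposited intervals of its 2 columns did not overlap, and this held for 0 of the 83 in either direction. Over all 14319 kept rows it held for 0.726% in the higher and 0.454% in the lower direction, so a count of 0 among 83 is near the background. When a call needed only that 0 lay outside the interval of the difference, the count was again 0 of 83, against 1.26% higher and 1.11% lower of all kept rows. The intervals left little room for a call. The lower bound was 0 in both columns for 55 of the 83 (66.3%, against 45.6% of kept rows), and no difference of any size can be called for those. Upper bounds exceeded the FPKM by a median of 121% uninduced and 124% induced, against 101% and 100% over all kept rows. An overlap is therefore no evidence that a LINC gene stayed the same.

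**Figure D1:**
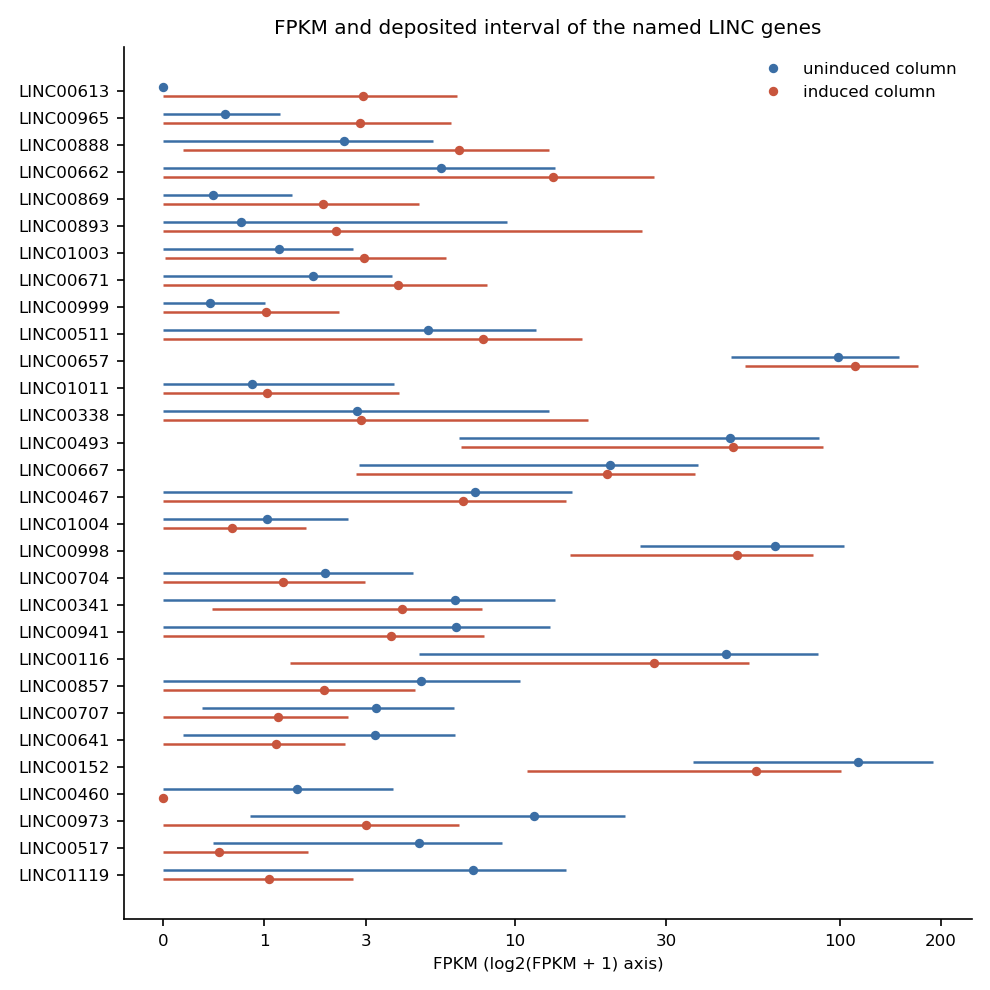
FPKM of 30 LINC genes, ordered by log2 difference, on a log2(FPKM + 1) axis; points are the deposited values of the uninduced and the induced column and lines their deposited intervals. The 2 lines of every gene overlap, and 20 of the uninduced lines reach 0.

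By size alone, 5 of the 83 genes were at least 2-fold higher and 5 at least 2-fold lower on the log2(FPKM + 1) scale, and 73 lay between. These shares were 6.02% each, beside 9.2% higher and 6.03% lower among all kept rows. Among the higher genes, LINC00613, LINC00965 and LINC00869 reached 1 FPKM in the induced column only. Among the lower, LINC00517 and LINC00460 reached it in the uninduced column only. Such genes were kept because they were high in that column, so their differences are in part set by the limit. Among the 3345 other kept rows with a mean between 1.54 and 7.33 FPKM, the middle part of the LINC range, 14.2% were at least 2-fold higher and 5.77% at least 2-fold lower. The median log2 difference of the LINC genes was 0.16, with 53 above and 30 below 0, against 0.05 for all kept rows and 0.25 for the rows in that band. After quantile normalization of the 2 columns the LINC median was -0.06, with 36 above and 47 below 0, and 2 were at least 2-fold higher and 9 lower. After giving both columns an equal sum, 58 were above and 25 below 0, and with the median of all kept rows set to 0 the counts were 50 and 33. The share above 0 was 63.9% of LINC genes and 53.7% of kept rows as deposited, and 43.4% and 49.1% after quantile normalization, the 1 scaling of the 3 under which most LINC genes were below 0. Under all of the 3 scalings tried, 35 genes kept a positive and 25 a negative difference, and 23 changed sign.

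**Figure D2:**
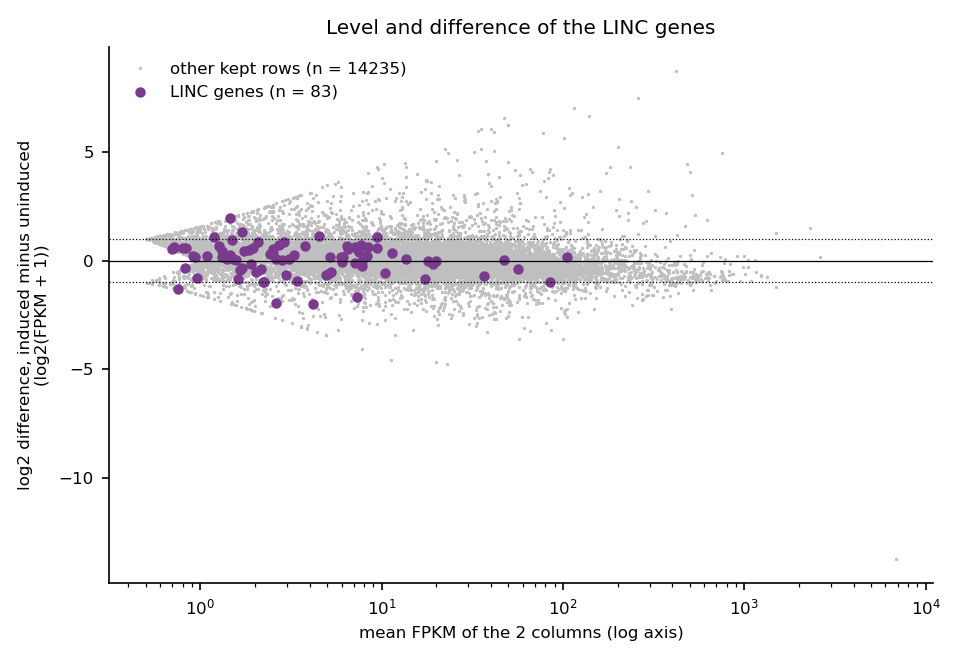
Log2 difference against the mean FPKM of both columns for 83 LINC genes and the other kept rows; the dotted lines are 2-fold. The LINC genes lie between -2.01 and 1.97, mostly at the low end of the expression range.

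As deposited, the median difference was lower in the more abundant genes, among LINC genes and all kept rows. The 44 LINC genes with a mean under 3 FPKM had a median log2 difference of 0.19, with 31 above 0, beside 0.35 for all kept rows at that level. The 27 between 3 and 10 FPKM had a median of 0.18 beside 0.20. The 12 at 10 FPKM or more had a median of -0.09, with 4 above 0, beside -0.06. Low genes could be kept for their value in 1 column only, so the limit in part sets the medians at the low level. LINC genes at 1 FPKM or more numbered 69 uninduced and 78 induced. The medians by level were not repeated under the scalings. After quantile normalization the median of all LINC genes was -0.06, so the order of the levels is described for the deposited values only. In RNA from a whole culture, fewer expressing cells and less RNA per cell cannot be told apart.

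The 6 LINC genes with the highest means were LINC00152, LINC00657, LINC00998, LINC00493, LINC00116 and LINC00667. LINC00667 (chromosome 18, 5232875 to 5246507), in neither list of described genes, was at 20.1 FPKM uninduced (2.81 to 37.3) and 19.6 FPKM induced (2.73 to 36.6), and its difference of -0.03 changed sign with the scaling. LINC00657 (NORAD), a cytoplasmic RNA that binds Pumilio proteins, was at 98.9 FPKM uninduced (interval 47.2 to 151) and 111 FPKM induced (51.9 to 171). It lies on chromosome 20, 34633544 to 34638882, in hg19, the build of all positions of table rows, counted from 1. LINC00152 (CYTOR, chromosome 2, 87754887 to 87906324), studied for its part in growth and the cytoskeleton, was at 113 FPKM uninduced (36.1 to 190.4) and 55.9 FPKM induced (11.0 to 101). Uninduced, LINC00152 had the highest FPKM of the list, and induced, LINC00657 had. The ratio of uninduced to induced was 2.03 for LINC00152. The intervals overlapped from 36.1 to 101 FPKM, and the difference stayed negative under every scaling, between -1.06 and -0.81.

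LINC00152 shares sequence with a second gene on chromosome 2, annotated as MIR4435-1HG in the table and MIR4435-2HG in GENCODE release 29. Of the 50-base words in its annotated transcripts, 24.9% also occur in transcripts of other genes, most often in those of MIR4435-2HG, and the longest run shared with that gene is 432 bases. The first 100 bases of this run are shown because a fragment that falls in it cannot be assigned to either gene.
LINC00152 and MIR4435-2HG, shared: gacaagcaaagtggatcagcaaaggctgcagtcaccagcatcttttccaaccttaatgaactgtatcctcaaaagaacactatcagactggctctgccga
MIR4435-1HG was at 99.1 FPKM uninduced (23.8 to 174.5) and 60.04 FPKM induced (9.48 to 111). Both rows were lower in the induced column, and neither value is certain to belong to 1 gene. Among the other genes with the highest means, LINC00657 shares 35.3% and LINC00667 23.3% of their words with transcripts of other genes. LINC00998, LINC00493 and LINC00116 share 3.3%, 9.3% and 3.4%. Whether their values include fragments of other genes was not tested.

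Among the 6 LINC genes with the highest means, LINC00998, LINC00493 and LINC00116 are listed for a small protein. Of 8 LINC symbols listed for a small protein, 7 were in the table and 3 were kept. LINC00998 (SMIM30, chromosome 7, 112740718 to 112786385), a small integral membrane protein gene, was at 64.0 FPKM uninduced (24.9 to 103) and 49.0 FPKM induced (15.1 to 82.9). LINC00493 (SMIM26, chromosome 20, 18548064 to 18550207) was at 46.7 FPKM (6.54 to 86.9) and 47.8 FPKM (6.62 to 89.0). LINC00116 (MTLN, chromosome 2, 110969106 to 111043433), which encodes the mitochondrial inner membrane peptide mitoregulin, was at 45.4 FPKM (4.72 to 86.0) and 27.5 FPKM (1.38 to 53.5). The intervals of each pair overlapped. The other 4 listed in the table were under the limit, among them LINC00948, a muscle peptide gene, listed at 0 in both columns. Outside the list, GENCODE release 29 also types LINC00094, LINC00984 (INAFM2) and LINC00854 (CCDC200) as protein coding. LINC00094 was at 20.3 and 18.1 FPKM, LINC00984 at 12.5 and 8.18 FPKM and LINC00854 at only 1.46 and 1.57 FPKM.

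Genes with a described role were taken from a list made with earlier results of these data known. Of 15 symbols listed, 14 were in the table and 10 were kept, with 0 called, beside 1.18% of all kept rows. Of these 10, 2 were at least 2-fold lower and 0 at least 2-fold higher, beside 6.03% and 9.2% of all kept rows. Their median log2 difference was -0.47, against 0.16 for all 83. With 10 listed genes this difference of medians was not tested. The value was lower in the induced column for 7 of the 10 and higher for LINC00657, LINC00511 and LINC00338. LINC00460, studied for its level in tumours, was at 1.503 FPKM uninduced (0 to 3.79) and listed at 0 induced. LINC00707 was at 3.29 FPKM (0.307 to 6.26) and 1.19 FPKM (0 to 2.54), and LINC00941 at 6.36 and 3.73 FPKM. LINC00341 was at 6.34 and 4.11 FPKM. LINC00704 (MANCR, a mitotically associated RNA) was at 2.02 and 1.27 FPKM. LINC00511 stood on the other side, at 5.11 FPKM uninduced (0 to 11.7) and 7.88 FPKM induced (0 to 16.5). LINC00467 (7.40 and 6.77 FPKM) and LINC00338 (2.75 and 2.87 FPKM), the small nucleolar RNA host gene SNHG20, had log2 differences of -0.11 and 0.04, and both changed sign with the scaling. LINC00473 and LINC00520 were listed at 0 in both columns.

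The lowest differences belonged to LINC01119, LINC00517, LINC00973 and LINC00460. LINC01119 (chromosome 2, 47043807 to 47086146) was at 7.29 FPKM uninduced (0 to 14.7) and 1.06 FPKM induced (0 to 2.67), a log2 difference of -2.01. LINC00517 was at 4.74 FPKM (0.404 to 9.08) and 0.469 FPKM (0 to 1.69), a difference of -1.97. LINC00973 (chromosome 3, 98621268 to 98737406) was at 11.6 FPKM (0.815 to 22.3) and 2.99 FPKM (0 to 6.54), a difference of -1.66. These 4 stayed at least 2-fold lower under the 3 scalings. The differences of LINC00641 (-0.98), LINC00707 (-0.97) and LINC00857 (-0.96) passed 2-fold under at least 1 scaling only.

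The highest differences belonged to LINC00613, LINC00965, LINC00888, LINC00662 and LINC00869. LINC00613, on chromosome 4 from 136788138 to 136834835, was listed at 0 uninduced and was at 2.91 FPKM induced (0 to 6.41). LINC00965 was at 0.532 FPKM (0 to 1.22) and 2.85 FPKM (0 to 6.12). LINC00888 (chromosome 3, 183165396 to 183173801), named SNHG33 in RefSeq, was at 2.44 FPKM (0 to 5.30) and 6.53 FPKM (0.149 to 12.9). LINC00662 was at 5.66 FPKM (0 to 13.5) and 13.3 FPKM (0 to 27.5), and LINC00869 at 0.405 FPKM (0 to 1.41) and 1.98 FPKM (0 to 4.72). Under the scalings, LINC00613 and LINC00965 stayed at least 2-fold higher, and LINC00888, LINC00662 and LINC00869 did not under at least 1. The row named LINC00869 (now LINC00623) shares 64.6% of its words with transcripts of other genes. They occur most often in those of the gene that GENCODE release 29 names LINC00869. LINC00965 shares 18.1%. The next 3 were LINC00893 (0.705 and 2.26 FPKM), LINC01003 (1.21 and 2.96 FPKM) and LINC00671 (1.79 and 3.97 FPKM).

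Further LINC genes with a known product or role, outside that list, had values on both sides. LINC01021 (PURPL), a target of p53 that limits p53 levels, was at 4.65 FPKM uninduced (0 to 14.3) and 8.15 FPKM induced (0 to 18.9). LINC00263 (OLMALINC), which lies 8781 bases from the desaturase gene SCD, was at 1.78 FPKM (0 to 3.57) and 3.64 FPKM (0.302 to 6.97). LINC00632, the host transcript of the circular RNA CDR1as, was at 2.36 FPKM (0 to 5.40) and 0.880 FPKM (0 to 2.30), which does not separate linear from circular RNA. LINC00094 (BRD3OS) was at 20.3 FPKM (2.52 to 38.1) and 18.1 FPKM (0.145 to 36.0).

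The LINC gene beside FOXA2 was listed at 0. LINC00261, whose span ends 2362 bases from that of FOXA2 on chromosome 20 and which is known from endoderm, was listed at 0 in both columns. LINC00517 lies near FOXA1, the related factor, and the table gives both rows the same span, chromosome 14 from 38059189 to 38672128, which merges the 2 genes. FOXA1 was at 1.04 FPKM (0 to 4.24) and 1.63 FPKM (0 to 4.48), while LINC00517 had its lower value in the induced column.

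Many LINC rows cannot be placed apart from their neighbours. For 25 of the 83 the span in the table is identical to that of another kept row, with a median span of 116139 bases, against 19175 bases for the other 58. The 25 had a median log2 difference of 0.19 and the 58 of 0.13. LINC01116 (6.405 and 10.5 FPKM) and LINC01117 (1.22 and 1.69 FPKM) share 1 span on chromosome 2, from 177494317 to 177520686. In all, 24 of the 81 genes with a GENCODE transcript share over 10% of their 50-base words with transcripts of other genes, and 16 share none.

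Where 2 LINC genes lay within 1000000 bases, their differences had the same sign in 5 of 6 pairs. As deposited, 63.9% of all LINC genes were above 0, so pairs at any distance often share a sign. Among the 5, LINC01116 and LINC01117 have 1 span in common. LINC00671 and LINC00854 on chromosome 17 had differences of 0.84 and 0.06. LINC00702 (3.82 and 2.08 FPKM) and LINC00704 lie 406273 bases apart on chromosome 10 and were both lower. LINC00882 (1.18 and 1.45 FPKM) and LINC00883 (DUBR, 7.61 and 8.95 FPKM) lie 51 bases apart on chromosome 3 and were both slightly higher. LINC00893 and LINC00894 (0.967 and 1.65 FPKM) on chromosome X, which are copies of each other in part, were both higher. LINC01085, at 22.3 FPKM (3.51 to 41.2) and 12.2 FPKM (0.814 to 23.5), and LINC00504 (2.48 and 2.71 FPKM) on chromosome 4 were of opposite sign.

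The difference of each LINC gene was set beside that of its nearest expressed neighbour. For 45 LINC genes the nearest kept gene without a LINC symbol lay within 10000 bases or in the same span, and 31 of the 45 (68.9%) had its sign, against 58.8% of 10553 other kept rows and their nearest kept gene. Across these 45 genes Pearson's r of the 2 log2 differences was 0.458 and Spearman's rho 0.412. For the 38 farther away the share was 76.3%, against 53.0% of 3682 other rows, with r of 0.333 and rho of 0.356. Genes are not independent replicates, and each pair shares both columns, so these are descriptions. Among the farther pairs, LINC00882 and LINC00883 both have BBX as neighbour, and LINC01116 and LINC01117 both have MTX2. As deposited, 63.9% of LINC genes and 53.7% of kept rows were above 0, which also affects how often signs are equal. Over all 83 the count of the same sign was 60 as deposited and 46 after quantile normalization, where it was not split by distance. Single pairs differed widely. LINC00973 shares its span with CTD-2021J15.1 (1.60 and 0.475 FPKM), also lower. LINC00888 lies 179555 bases from KLHL24 (2.05 and 10.4 FPKM), also higher. LINC00662 (above) shares its span with SLC25A1P5, a pseudogene at 2.08 and 1.88 FPKM. LINC00704 was lower while AKR1E2, 108475 bases away, was listed at 0 uninduced and 3.79 FPKM induced.

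Among the 8 LINC genes with the lowest differences, the neighbour was also lower for 7 as deposited, the exception being LINC00517 with FOXA1. Of other kept rows, 58.8% had the sign of a nearest kept gene within 10000 bases and 53.0% that of one farther away. These shares cover differences of any size and either sign. Other rows with differences as large were not counted apart, so they are no matched background. The counts for the 8 lowest and the 8 highest were not repeated under the scalings. TTC7A, 40268 bases from LINC01119, was at 11.9 and 7.88 FPKM, and EFNB2, an ephrin ligand gene 111514 bases from LINC00460, at 7.65 and 3.98 FPKM. RP11-554I8.2, 40572 bases from LINC00707, was at 1.57 and 0.538 FPKM. HNRNPC, an RNA-binding protein gene 2236 bases from LINC00641, was at 383 and 317 FPKM. ANXA11, an annexin gene 2138 bases from LINC00857, was at 104 and 69.9 FPKM. AC093616.4, 94179 bases from LINC00152, was near equal, at 2.33 and 2.22 FPKM. Among the 8 with the highest differences, the neighbour was also higher for 6 as deposited, and lower for LINC00671 and LINC00662. BECN1, an autophagy gene 30913 bases from LINC00671, was at 79.4 and 62.3 FPKM. IDS, a lysosomal sulfatase gene that shares the span of LINC00893, was at 51.9 and 122 FPKM, and RP11-403I13.8, 476 bases from LINC00869, at 0.458 and 2.20 FPKM. KMT2C, a histone methyltransferase gene 27781 bases from LINC01003, was at 5.45 and 7.01 FPKM. FAM85A, 216547 bases from LINC00965, was at 5.57 and 9.06 FPKM. PCDH18, a protocadherin gene, lay 1605237 bases from LINC00613 and was at 31.9 and 56.6 FPKM.

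**Figure D3:**
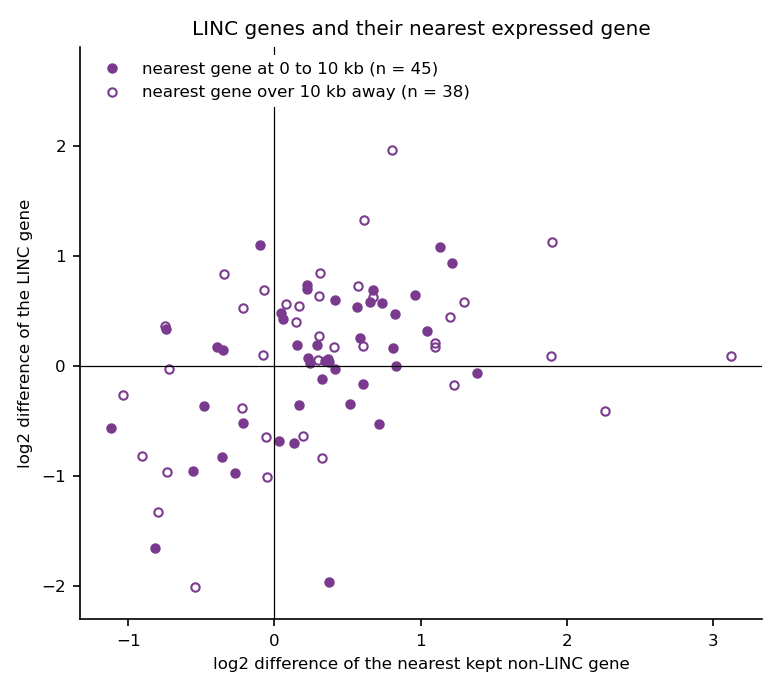
Log2 difference of each LINC gene against that of its nearest kept gene without a LINC symbol; filled points are pairs at 0 to 10 kb, open points pairs farther apart. Of 83 pairs, 60 lie in the quadrants of equal sign.

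The LINC genes were set beside other kinds of row. Kept rows with antisense names (227) had a median mean of 3.08 FPKM and a median log2 difference of 0.18, and rows named after clones (1648) had 2.15 FPKM and 0.16, beside 2.81 FPKM and 0.16 for the LINC genes. The remaining 12360 kept rows had 17.9 FPKM and 0.04. At least 2-fold higher were 7.49% of antisense and 10.7% of clone-named rows, and 4.85% and 6.25% were at least 2-fold lower. Intervals separated for 0 of the antisense rows and 2 higher and 1 lower of the clone-named rows, beside 1.34% of the remaining rows. The lower bound was 0 in both columns for 93.8% of antisense and 94.4% of clone-named rows, so most of these could not be called.

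**Figure D4:**
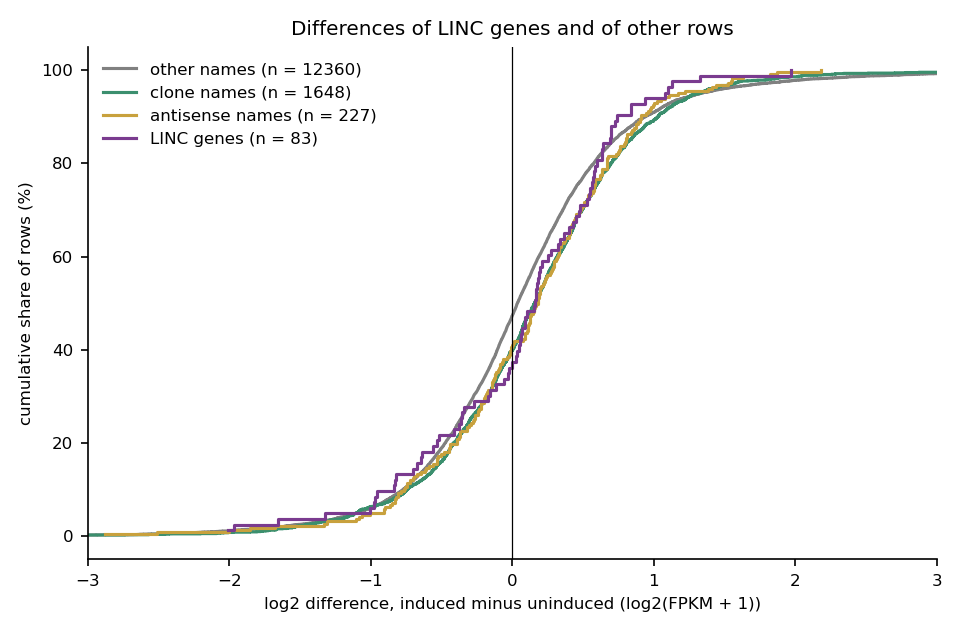
Cumulative share of rows against log2 difference for the LINC genes (n = 83), rows with antisense names, rows named after clones and all other kept rows; the axis ends at 3 in both directions. The LINC curve crosses 0 at 36.1%, near the curves of the antisense and clone-named rows.

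Other long noncoding RNAs with a name of their own were listed for comparison. Of 32 symbols, 30 were in the table and 23 were kept, and 0 were called, beside 1.18% of all kept rows. Of the 23, 5 were at least 2-fold higher and 1 at least 2-fold lower, with a median log2 difference of 0.11, beside 9.2% higher and 6.03% lower of all kept rows. The highest uninduced was MIR4435-1HG, below LINC00152, and the highest induced was MEG3, above LINC00657. MEG3, an imprinted RNA, was at 64.4 FPKM uninduced (21.9 to 107) and 155 FPKM induced (52.8 to 257), and NEAT1, the scaffold of paraspeckles, at 37.0 FPKM (5.65 to 68.3) and 121 FPKM (31.4 to 209.9). ZFAS1 was at 61.5 and 130.3 FPKM, TUG1 at 51.3 and 80.8 FPKM and HOTAIR, from the HOXC cluster, at 17.9 and 38.6 FPKM. DANCR was the 1 at least 2-fold lower, at 31.6 FPKM (6.402 to 56.9) and 6.66 FPKM (0 to 14.0). DANCR was chosen after its value was seen.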

How the data were processed

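RNA of 4 samples in 2 groups was sequenced from non-stranded TruSeq libraries, per the labels' protocols. The submitters' processing notes name TopHat and hg19; the tool that made the FPKM values is not given in these sources. The authors deposited FPKM values with the lower and upper bound of a confidence interval, 1 column per group, per the file headers. It is not stated how the 2 samples enter a column or what level the interval has. Column names gave the groups, and 3 value columns that match no sample were left out.

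Rows at 1 FPKM or more in at least 1 column were kept (14319). With 1 value per group the planned limma fit could not be run. A row was called when the intervals of both columns did not overlap, and 3 kept rows with malformed bounds, none of them a LINC gene, were never called. On simulated data this criterion called only part of the genes given a change, none in the wrong direction. It also called some genes given no change, so a call alone does not show that a row changed. Log2 differences used a pseudocount of 1 FPKM. Starts in the table count from 0: of 52511 genes shared with GENCODE release 29, the span equals the gene length for 22132 when read so and for 326 otherwise; 1 was added. Distances are between spans.

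The table holds no counts. Among 2973 rows with 1 start site and values between 0 and 1 FPKM, ratios of the columns piled up at 0.86 (119 rows, against a median of 10 per step of the same width); if these rows hold 1 fragment each, depth was 1.16 times higher in the induced column.

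The genes and lists were chosen with earlier results of these data known. Named were the 8 LINC genes with the largest difference in each direction, the 6 with the highest mean, kept members of the small-protein and described-role lists, the 3 nearest each side of the limit, LINC00261, and nearest genes; any other gene was picked with its values known. The list of other long noncoding RNAs is given by its 6 highest means. Python 3.11.15, pandas 2.3.3, numpy 2.4.6 and matplotlib 3.10.9 were used.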

Additional observations from a re-analysis of the deposited data

How the results depend on the processing

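No paired analysis was possible because samples have no columns of their own, only their group has; leaving out replicates, the replicate block and limma were not run for that reason. No LINC gene was called under any alternative that uses the intervals, and 10 passed with the 2-fold limit alone. A median is said to move when it shifts by over 0.1 or changes sign. The LINC median, 0.16, was 0.29 when both columns were given an equal sum, -0.0593 after quantile normalization, 0.0603 at a mean of at least 5 FPKM and 0 with no filter. The median of all kept rows went from 0.05 to 0.23 with the same sum. The LINC median minus that of other kept rows, 0.11, was -0.0487 after quantile normalization and 0 with no filter. The count at least 2-fold higher, 5, was 2 after quantile normalization, 14 with a pseudocount of 0.1 and 1 at a mean of at least 5 FPKM. The count lower, 5, was 9, 10 and 2 in that order, 10 with a pseudocount of 0.5 and 3 without genes that share a span. The cause was not tested. The 2-fold counts, neighbours, 1 start site and shared words were alternatives chosen after seeing the data.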
